A study of Mus musculus with 52 samples.

Results

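The regulatory T cell genes described here were 7 genes found by symbol in a table of 57010 genes: Foxp3, Ikzf2 and Ikzf4, which encode transcription factors, and Il2ra, Ccr8, Gpr83 and Nrp1, which encode surface receptors. They were followed in RNA sequencing libraries from mice of the strain hCD40tg (human CD40 is their transgene) bearing tumors of MC38-CEACAM5, a mouse colon carcinoma line that expresses the human antigen CEACAM5. The mice received vehicle, an antibody to CD40 (CD40 mAb), or ATOR-4066, a bispecific antibody to CD40 and CEACAM5. The transgene and the tumor line were therefore shared by all groups, the controls included. The sources used here do not give the transgene's promoter, the mice's age, the doses or the times of sampling.

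Whole tumor was read in 4 vehicle, 5 CD40 mAb and 4 ATOR-4066 libraries, and CD45+Ly6G- cells sorted from tumors (sorted cells below) in 4, 3 and 3. Lymph node was read in 4, 4 and 5 libraries and blood in 5, 5 and 4. These are 50 of the 52 libraries. Lymph node vehicle 3 and tumor ATOR-4066 3 were left out because their profiles went against their labels. In the lymph node library the 8 B cell markers summed to 4.7 CPM against 2432 to 3886 in the other vehicle lymph nodes, and in the tumor library they summed to 2936 CPM where the other 4 ATOR-4066 tumors had 7.85 to 38.3. The labels number the libraries without saying that each is a separate animal, so p-values measure the spread between these libraries, which may be technical. No sorted library shares its number with a library of another material. Differences between sorted cells and other materials therefore cannot be told apart from differences between sets of animals or batches.

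Regulatory T cells are a branch of CD4+ T cells that restrains other immune cells. Foxp3 is the transcription factor that defines them, and Il2ra encodes the alpha chain (CD25) that gives the IL-2 receptor its high affinity. They use IL-2 that other T cells make, and in tumors they are known for damping the response of effector T cells. Ikzf2 (Helios) and Ikzf4 (Eos) are Ikaros family factors that work with Foxp3, Ccr8 is a chemokine receptor found on tumor regulatory T cells, and Gpr83 is a G protein-coupled receptor of the resting cells. Nrp1 is a receptor for semaphorins and VEGF that thymus-derived regulatory T cells carry, but plasmacytoid dendritic cells, macrophages, endothelium and stromal cells carry it too. Il2ra is also switched on in activated T cells of other kinds.

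In GRCm38 with the GENCODE annotation, Foxp3 (ENSMUSG00000039521) lies on chrX:7573644-7595245, plus strand. Il2ra (ENSMUSG00000026770) lies on chr2:11642807-11693193, plus strand, Ikzf2 (ENSMUSG00000025997) on chr1:69531214-69687245, minus strand, and Ikzf4 (ENSMUSG00000002578) on chr10:128630843-128645991, minus strand. Ccr8 (ENSMUSG00000042262) lies on chr9:120092114-120094906, Gpr83 (ENSMUSG00000031932) on chr9:14860210-14870789 and Nrp1 (ENSMUSG00000025810) on chr8:128358604-128503363, all on the plus strand. Foxp3 shares 853 exon bases with the same-strand gene Flicr, so some reads of one can have been counted for the other.

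Across the tumor libraries the levels of Il2ra (Pearson r = 0.94), Ccr8 (0.89), Ikzf4 (0.89) and Ikzf2 (0.78) moved with Foxp3. Those of the T cell genes Cd3e (0.88) and Cd4 (0.87) did so too, and Nrp1 did not (-0.06). Promoters were matched for 5 of the 7 genes, not for Ikzf2 and Ikzf4. Those of Foxp3, Il2ra and Ccr8 are shown as RefSeq gives them in GRCm38.p6. They run from 250 bases before to 50 bases after a transcript start, 5′ to 3′. Capitals mark matches, on either strand, to the core motif of NFAT (GGAAA, or TTTCC on the other strand), to the STAT motif (TTCNNNGAA) and to the TATA box (TATAAA). NFAT and STAT5 are the factors through which the T cell receptor and IL-2 act.
Foxp3, chrX:7579426-7579725: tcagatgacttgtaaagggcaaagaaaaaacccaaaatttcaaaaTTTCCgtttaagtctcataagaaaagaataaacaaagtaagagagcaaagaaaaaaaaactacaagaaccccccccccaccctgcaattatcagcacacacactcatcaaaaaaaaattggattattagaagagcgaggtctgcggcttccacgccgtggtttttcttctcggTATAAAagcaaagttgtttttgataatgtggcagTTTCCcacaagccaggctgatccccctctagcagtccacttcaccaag
Foxp3, chrX:7580233-7580532: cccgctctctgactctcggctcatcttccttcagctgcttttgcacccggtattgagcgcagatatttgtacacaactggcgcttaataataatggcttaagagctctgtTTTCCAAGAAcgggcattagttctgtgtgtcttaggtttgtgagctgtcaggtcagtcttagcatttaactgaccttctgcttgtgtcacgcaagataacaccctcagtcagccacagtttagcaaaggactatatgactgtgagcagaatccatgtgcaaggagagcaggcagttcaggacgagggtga
Il2ra, chr2:11642542-11642841: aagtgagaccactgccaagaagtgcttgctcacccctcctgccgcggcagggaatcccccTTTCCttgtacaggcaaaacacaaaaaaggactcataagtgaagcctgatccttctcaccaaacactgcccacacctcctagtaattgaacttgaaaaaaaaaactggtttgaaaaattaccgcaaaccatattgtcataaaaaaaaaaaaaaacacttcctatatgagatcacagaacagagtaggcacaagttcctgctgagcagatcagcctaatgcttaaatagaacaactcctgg
Ccr8, chr9:120091883-120092182: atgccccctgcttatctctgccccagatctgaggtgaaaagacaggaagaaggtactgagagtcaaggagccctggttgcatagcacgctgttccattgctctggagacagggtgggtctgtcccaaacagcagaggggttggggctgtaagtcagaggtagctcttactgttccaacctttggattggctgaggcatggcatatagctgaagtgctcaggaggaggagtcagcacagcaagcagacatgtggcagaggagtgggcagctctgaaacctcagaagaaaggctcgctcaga
The first Foxp3 window held 2 NFAT matches and 1 TATA match, and the second held 1 NFAT match that overlaps 1 STAT match. The Il2ra window held 1 NFAT match and the Ccr8 window none of the 3 motifs. Among 32851 mouse promoters of this length, 61.3% held the NFAT core, 8.3% the STAT motif and 13.6% the TATA box. These matches describe letters only.

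Total estimated counts (in M, mega-counts) were 30.2 to 47.5 M per library in sorted cells, 47.4 to 64.2 M in tumor, 46.3 to 138.5 M in lymph node and 33.5 to 44.1 M in blood. In blood 69.8% to 88.2% of counts came from haemoglobin genes, leaving 4.14 to 11.6 M for all other genes. Levels are in CPM, read counts scaled to a common library total, on library sizes scaled by TMM within a material, and a gene is called where the adjusted p of a test over all genes was under 0.05. The T cell marker Cd3e (a subunit of CD3) was detected in every library used. All of these are bulk samples, in which fewer cells of a type and less RNA per cell cannot be told apart.

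In vehicle mice, 5 of the 7 genes were far higher in sorted cells than in whole tumor, and Nrp1 was not. On a scaling over all 50 libraries, Foxp3 was at 29.4 ± 6.3 CPM (SD, n = 4) in sorted cells, 11.5 ± 1.7 (n = 4) in lymph node, 8.71 ± 1.36 (n = 5) in blood and 2.89 ± 1.46 (n = 4) in tumor. The sorted libraries lay above all others and the tumor libraries below all others. In one voomLmFit fit of all groups, Foxp3 was higher in sorted cells than in tumor by 3.44 ± 0.39 (log2 ± SE, adjusted p = 1.14e-09). Il2ra was higher by 2.94 ± 0.44, Ikzf2 by 2.31 ± 0.27, Ikzf4 by 2.67 ± 0.45 and Ccr8 by 3.28 ± 0.57, and the largest of their adjusted p-values was 5.47e-06. Of all genes, 24% were called higher in sorted cells. Nrp1 differed by -0.27 ± 0.23 (adjusted p = 0.339), with 42.0 ± 8.0 CPM in sorted cells and 50.3 ± 7.3 in tumor. The T cell marker Cd3e was higher in sorted cells by 3.18 ± 0.56, a step like that of Foxp3.

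Per kilobase of exon, which allows genes to be compared with each other, the order in vehicle sorted cells was Il2ra at 7.23 ± 1.54 CPM per kb, Foxp3 at 6.42 ± 1.37, Ccr8 at 4.70 ± 1.33, Nrp1 at 4.29 ± 0.82, Ikzf2 at 2.18 ± 0.40 and Ikzf4 at 0.76 ± 0.15. Il2ra and Foxp3 did not differ beyond their spread, nor did Ccr8 and Nrp1. Gpr83 was last at 0.013 ± 0.007, from 0 to 20 counts in any sorted library. In whole tumor the order was led by Nrp1 at 5.14 ± 0.75 CPM per kb, with Il2ra at 0.97 ± 0.33 and Foxp3 at 0.63 ± 0.32 next and not apart from each other.

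Between tumor and lymph node of vehicle mice, 6 of the 7 genes were lower in tumor and Nrp1 was higher. Of all genes, 29.3% were called lower in tumor and 32.3% higher. Foxp3 was lower by 2.09 ± 0.35 on the log2 scale (difference -2.09, adjusted p = 2.67e-06), and Ikzf4 differed by -2.53 ± 0.41, Il2ra by -1.32 ± 0.38, Ikzf2 by -0.90 ± 0.24 and Ccr8 by -1.43 ± 0.55. Gpr83 was read from only 1 to 3 counts in each vehicle tumor and from 113 to 240 in each vehicle lymph node. Nrp1 was higher in tumor by 1.92 ± 0.19 (adjusted p = 3.29e-11). The Ccr8 call was lost without tumor vehicle 1, 4 or 5 (adjusted p up to 0.0832), and with the left-out libraries so were those of Ccr8 (0.0719) and Ikzf2 (0.0681). Cd3e itself differed by -3.41 ± 0.49.

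Relative to Cd3e, most of the 7 genes were higher in tumor than in lymph node. The ratio of Foxp3 to Cd3e was higher in tumor than in lymph node by 1.33 ± 0.50 (log2, adjusted p = 0.0123), that of Il2ra by 2.10 ± 0.52 (0.000179), that of Ikzf2 by 2.52 ± 0.52 (1.37e-05), that of Ccr8 by 2.02 ± 0.77 (0.013) and that of Nrp1 by 5.34 ± 0.58 (6.18e-12). Ikzf4 at 0.94 ± 0.62 did not pass (0.15). The Gpr83 ratio rests on the 1 to 3 counts per tumor given above and depends on the added prior count, so it is not given. Every gene's ratio carries the error and the change of Cd3e itself, and 86.1% of all genes were called higher relative to Cd3e in tumor and 1.49% lower, so these calls say little about the 7 genes in particular. With the left-out libraries the ratios of Foxp3 (0.126) and Ccr8 (0.118) were no longer called.

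Between sorted cells and whole tumor of vehicle mice, the ratios of Foxp3 (0.25 ± 0.50), Il2ra (-0.26 ± 0.52), Ikzf2 (-0.89 ± 0.52), Ikzf4 (-0.58 ± 0.63) and Ccr8 (0.03 ± 0.77) to Cd3e were not called different. The intervals are wide, and these values do not show that the ratios are alike. Nrp1 was lower relative to Cd3e in sorted cells by this measure, at -3.46 ± 0.58 (limma, adjusted p = 2.92e-07), where 88.6% of all genes were called lower. Gpr83 had 2 to 9 counts in each vehicle sorted library and 1 to 3 in each vehicle tumor, so its fitted ratio depends on the added prior count and is not given.

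In blood against lymph node of vehicle mice, 3 of the 7 genes were called lower, with 33.8% of all genes called lower. They were Il2ra at -1.49 ± 0.47 (adjusted p = 0.00607), Ccr8 at -3.13 ± 0.53 (3.57e-06) and Ikzf4 at -0.79 ± 0.31 (0.0251). The Ikzf4 call was lost without blood vehicle 3 (0.0679) or blood vehicle 5 (0.0756), and with the left-out libraries, where its value was -0.38 (0.418). Foxp3 differed by -0.38 ± 0.31, Ikzf2 by 0.21 ± 0.23, Gpr83 by 0.11 ± 0.38 and Nrp1 by -0.09 ± 0.22, none of them called. Relative to Cd3e, Il2ra at -1.30 ± 0.49 (0.0403) and Ccr8 at -3.23 ± 0.73 (0.000283) were lower, with 15.9% of all genes called lower. Ccr8 was read from only 0 to 6 counts in each vehicle blood library and from 146 to 203 in each vehicle lymph node. The sizes of both its differences therefore depend on the small count added in the fits. The Il2ra ratio passed only with all of lymph node vehicle 1, 2 and 4 and blood vehicle 1, 2 and 3 in the fit (adjusted p up to 0.112 without one of them).

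**Figure D1:**
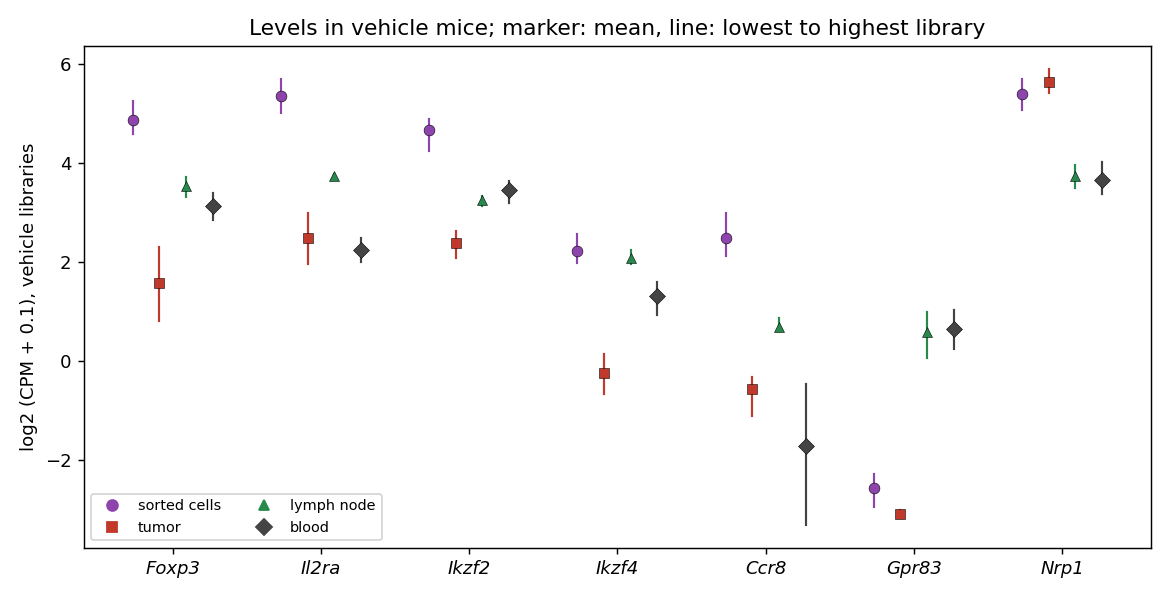
Level of the 7 genes in vehicle libraries of 4 materials, as log2 CPM with a small constant added, on a scaling over all libraries; markers are means and lines run from the lowest to the highest library. Foxp3, Il2ra, Ikzf2 and Ccr8 are highest in sorted cells, while Nrp1 is as high in whole tumor (50.3 CPM) as in sorted cells (42.0 CPM).

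Among the transcription factors in sorted tumor cells, Foxp3 was highest under ATOR-4066 and lowest under CD40 mAb. In vehicle libraries 6, 7, 9 and 10 it was at 70.4, 48.2, 54.6 and 44.4 CPM. In CD40 mAb libraries 6, 7 and 10 it was at 47.3, 21.7 and 14.5 CPM, and in ATOR-4066 libraries 6, 9 and 10 at 92.7, 102 and 180 CPM. All 3 ATOR-4066 libraries lay above every vehicle library, and 2 of 3 CD40 mAb libraries lay below. Between the antibodies Foxp3 was higher under ATOR-4066 by 2.16 ± 0.42 (log2 ± SE, edgeR, adjusted p = 0.0206). Against vehicle the ATOR-4066 value was 1.2 ± 0.37 (adjusted p = 0.0647), and that of CD40 mAb was -0.97 ± 0.39 (0.211), so neither passed.

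Ikzf2 was lowest under CD40 mAb and near vehicle under ATOR-4066. Its levels were 49.7, 34.9, 55.4 and 47.8 CPM in vehicle, 23.2, 17.8 and 12.2 under CD40 mAb and 35.4, 49.8 and 67.2 under ATOR-4066. Every CD40 mAb library lay below every other library, while vehicle and ATOR-4066 overlapped. Ikzf2 fell under CD40 mAb, from 47 ± 8.7 to 17.7 ± 5.5 CPM (log2 difference -1.40 ± 0.27, edgeR, adjusted p = 0.0451), and ATOR-4066 differed from vehicle by 0.11 ± 0.26 (0.815). It was higher under ATOR-4066 than under CD40 mAb by 1.52 ± 0.28 (0.0189).

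Ikzf4, the third factor, was at 10.8, 7.05, 7.52 and 8.39 CPM in vehicle, 4.99, 4.49 and 1.80 under CD40 mAb and 8.53, 9.93 and 16.6 under ATOR-4066. The CD40 mAb libraries lay below all others, and the ATOR-4066 libraries overlapped vehicle. It was higher under ATOR-4066 than under CD40 mAb by 1.63 ± 0.39 (edgeR, adjusted p = 0.0349). Against vehicle its values were 0.47 ± 0.35 (0.425) under ATOR-4066 and -1.16 ± 0.37 (0.125) under CD40 mAb.

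Il2ra, the IL-2 receptor chain, had the same order of treatments as Foxp3. It was at 95.6, 65.9, 83.6 and 60.5 CPM in vehicle, 50.2, 36.7 and 16.0 under CD40 mAb and 129, 124 and 248 under ATOR-4066. The 3 groups did not overlap. Il2ra was higher under ATOR-4066 than under CD40 mAb by 2.28 ± 0.41 (edgeR, adjusted p = 0.0186). Against vehicle it stood at 1.13 ± 0.37 (0.0731) under ATOR-4066 and -1.16 ± 0.38 (0.14) under CD40 mAb. Per 100 counts of Foxp3 there were 140.5 ± 8.4 of Il2ra in vehicle, 128.6 ± 35.4 under CD40 mAb and 132.9 ± 9.7 under ATOR-4066, and no difference in this ratio was called.

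Ccr8, the chemokine receptor, was at 14.4, 9.27, 9.28 and 7.97 CPM in vehicle, 6.29, 4.80 and 1.88 under CD40 mAb and 7.18, 17.6 and 19.6 under ATOR-4066. The CD40 mAb libraries lay below all others, with ATOR-4066 library 6 the nearest to them. Ccr8 was higher under ATOR-4066 than under CD40 mAb by 1.77 ± 0.47 (edgeR, adjusted p = 0.0475). Against vehicle it stood at 0.53 ± 0.43 (0.456) under ATOR-4066 and -1.24 ± 0.45 (0.169) under CD40 mAb.

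Nrp1 did not follow the other 5. It was at 69.4, 62.1, 96.3 and 83.4 CPM in vehicle, 88.9, 99.4 and 141 under CD40 mAb and 105, 120 and 56.8 under ATOR-4066, and all groups overlapped. No difference passed, with 0.27 ± 0.26 for ATOR-4066 against vehicle (adjusted p = 0.542), 0.50 ± 0.26 for CD40 mAb against vehicle (0.335) and -0.23 ± 0.28 between the antibodies (0.662). Gpr83 was too low to be tested, at 0 to 0.478 CPM, where 3 counts correspond to 0.0633 to 0.0979 CPM in the vehicle libraries.

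In numbers, 5 of the 6 genes tested in sorted cells were called higher under ATOR-4066 than under CD40 mAb, where 5.27% of all genes were called higher. Against vehicle, 1 of 6 was called lower under CD40 mAb (0.558% of all genes), and 0 of 6 were called in either direction under ATOR-4066 by edgeR (11.9% of all genes). In that last comparison 2 of the 6 had an unadjusted p under 0.05, as did 4840 of all 16667 genes. DESeq2 called 2, Foxp3 (adjusted p = 0.0147) and Il2ra (0.02), and the share of all genes that it called is not given here. The 5 calls between the antibodies rested on the full set of libraries: 0 remained called without CD40 mAb 7, 1 without CD40 mAb 10, and 3 without vehicle 6, 9 or 10 or ATOR-4066 9 or 10. The count was also 0 when only the compared treatments were fitted or with a replicate block, 3 with no low-count filter and 5 with DESeq2. For Foxp3 the difference between the antibodies ran from 1.78 to 2.76 over these fits. The Ikzf2 call under CD40 mAb was lost without vehicle 6, 9 or 10, any 1 CD40 mAb library or ATOR-4066 6, with values from -1.63 to -1.18.

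Markers of other cells moved in the same libraries. The 18 T cell markers summed to 3313 to 7569 CPM under ATOR-4066, 1216 to 1796 in vehicle and 551 to 1305 under CD40 mAb, with 16 of 18 called higher under ATOR-4066 than in vehicle and all 18 higher than under CD40 mAb. Cd3e rose under ATOR-4066 by 1.81 ± 0.30 (edgeR, adjusted p = 0.0108). The 10 macrophage markers summed to 515 to 3337 CPM under ATOR-4066, 4831 to 6390 in vehicle and 4479 to 9578 under CD40 mAb, and the called ones (Trem2, C1qa, C1qb and C1qc) were lower under ATOR-4066. The 9 plasmacytoid dendritic cell markers summed to 381 to 1538 CPM under ATOR-4066, 1736 to 2398 in vehicle and 1031 to 2502 under CD40 mAb. Single ATOR-4066 libraries stood apart for other lists: B cell markers summed to 426.5 CPM in library 9 (at most 22.1 in any other sorted library), and erythroid markers to 5869 CPM in library 6 (at most 357.8 in the others). Of the T cell, macrophage and plasmacytoid dendritic cell lists, no marker had a mean of 0 CPM in any group. Their part in the levels of the 7 genes was not tested.

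**Figure D2:**
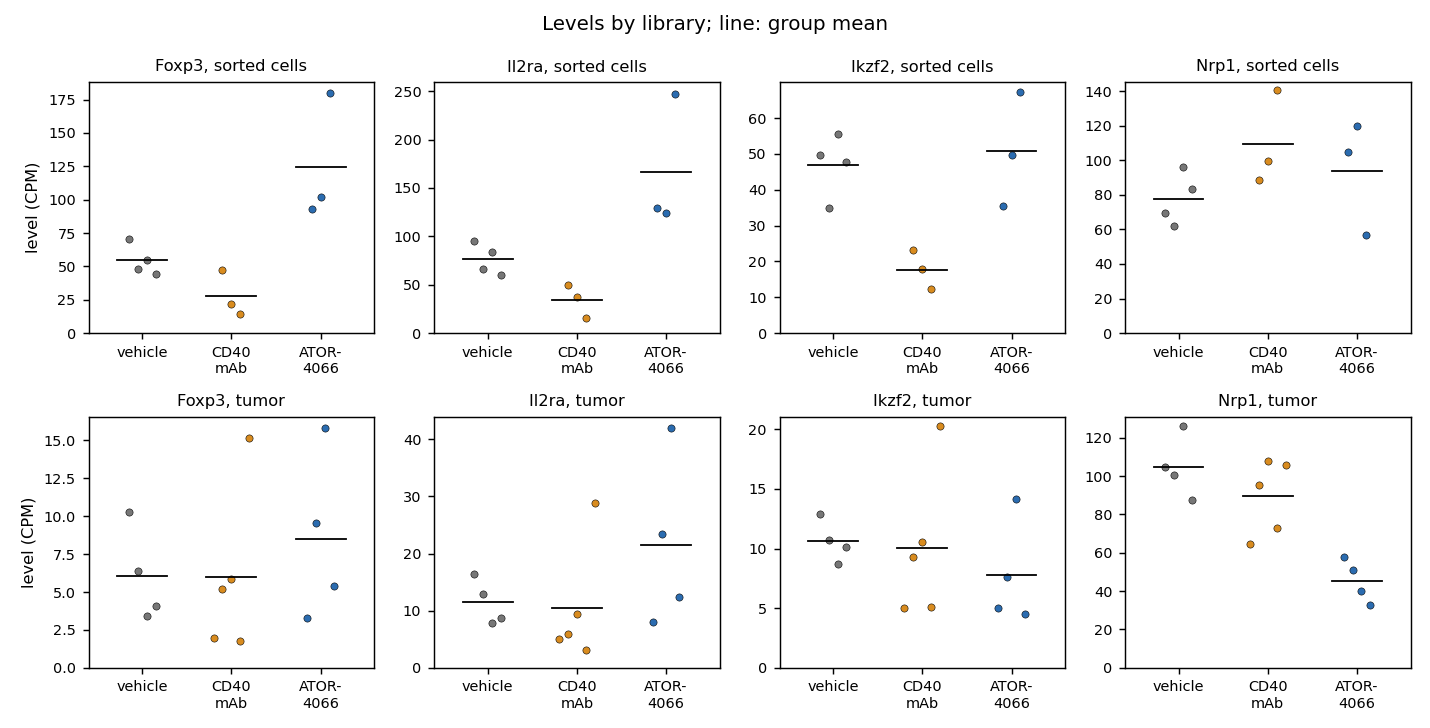
Level in CPM of Foxp3, Il2ra, Ikzf2 and Nrp1 in each library of sorted cells (top) and whole tumor (bottom) under the 3 treatments; points are libraries and lines group means. In sorted cells the 3 ATOR-4066 libraries lie above all others for Foxp3 and Il2ra and the 3 CD40 mAb libraries lie below all others for Ikzf2, while in tumor the 4 ATOR-4066 libraries lie below all others for Nrp1.

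Relative to Cd3e, the rank of the treatments in sorted cells changed. Per 100 counts of Cd3e there were 70.5, 60.3, 74.7 and 65.9 counts of Foxp3 in the vehicle libraries. Under CD40 mAb the values were 89.0, 48.7 and 50, and under ATOR-4066 they were 37.8, 23.8 and 105. ATOR-4066 libraries 6 and 9 lay below all others and library 10 above all others. The ratio differed from vehicle by -0.57 ± 0.43 under ATOR-4066 (log2, limma, adjusted p = 0.224), and became a call of -1.17 (0.00791) without ATOR-4066 10. For Il2ra the difference was -0.65 ± 0.44 (0.176), and -1.28 (0.004) without that library.

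Ikzf2 lay lowest against Cd3e under ATOR-4066. There were 49.8, 43.7, 75.8 and 70.9 counts of Ikzf2 per 100 of Cd3e in vehicle, 43.6, 40.0 and 42.0 under CD40 mAb and 14.4, 11.6 and 39.2 under ATOR-4066. The ATOR-4066 libraries lay below all others. The ratio was lower than in vehicle by this measure at -1.64 ± 0.41 (limma, adjusted p = 0.00152) and lower than under CD40 mAb at -1.16 ± 0.44 (0.0177).

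The ratios of Ikzf4 (-1.30 ± 0.46, adjusted p = 0.0144) and Ccr8 (-1.29 ± 0.45, 0.0133) to Cd3e were lower under ATOR-4066 than in vehicle as well. Without ATOR-4066 6 neither passed (0.0641 and 0.127), and without ATOR-4066 9 Ikzf4 did not (0.0911). Between the antibodies the ratios of Ikzf4 (0.0652) and Ccr8 (0.0903) were not called.

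Nrp1 against Cd3e separated the 3 groups fully. There were 69.5, 77.6, 132 and 124 counts of Nrp1 per 100 of Cd3e in vehicle, 167, 223 and 484 under CD40 mAb and 42.8, 28.0 and 33.1 under ATOR-4066. Relative to Cd3e, Nrp1 was lower under ATOR-4066 than in vehicle at -1.51 ± 0.41 (limma, adjusted p = 0.00271) and than under CD40 mAb at -2.94 ± 0.44 (7.85e-06). It was higher under CD40 mAb than in vehicle at 1.44 ± 0.41 (0.0436). The last of these was lost without any 1 vehicle library, CD40 mAb 7 or 10, or ATOR-4066 6, and with Cd4 as the reference gene it was 1.00 (0.532).

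These ratios have to be read beside Cd3e. The median ratio of all genes to Cd3e differed by -1.75 between ATOR-4066 and vehicle, so that 77.1% of all genes were called lower relative to Cd3e, and the 4 called members lay between -1.64 and -1.29. Between the antibodies the median of all genes was -2.67, with 87.1% called lower and 2 of 6 members called. Under CD40 mAb the median was 0.92, with 14.3% called higher and 1 of 6 members called. The count of 4 became 2 without ATOR-4066 6, and that of 2 became 4 without CD40 mAb 10, 1 without ATOR-4066 6 or 9 and 6 without ATOR-4066 10.

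Counted against Foxp3 instead, a comparison chosen after the data were seen, Nrp1 was the only member called in sorted cells. Its level in CPM was not called in any of these comparisons. Each ratio also carries the change of Foxp3 itself, which was 2.16 ± 0.42 between the antibodies. There were 147.8 ± 41.6 counts of Nrp1 per 100 of Foxp3 in vehicle, 538.5 ± 396.8 under CD40 mAb and 87.6 ± 48.5 under ATOR-4066. The ratio was higher under CD40 mAb than in vehicle at 1.61 ± 0.51 (limma, adjusted p = 0.0251; 19.6% of all genes called higher) and lower under ATOR-4066 than under CD40 mAb at -2.54 ± 0.54 (1.69e-05; 80.8% called lower). Ikzf2 stood at 88.0 ± 19.3 per 100 of Foxp3 in vehicle and 41.5 ± 6.5 under ATOR-4066, with 3 of 3 libraries below all vehicle libraries, and did not pass (-1.07 ± 0.51, 0.0797).

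**Figure D3:**
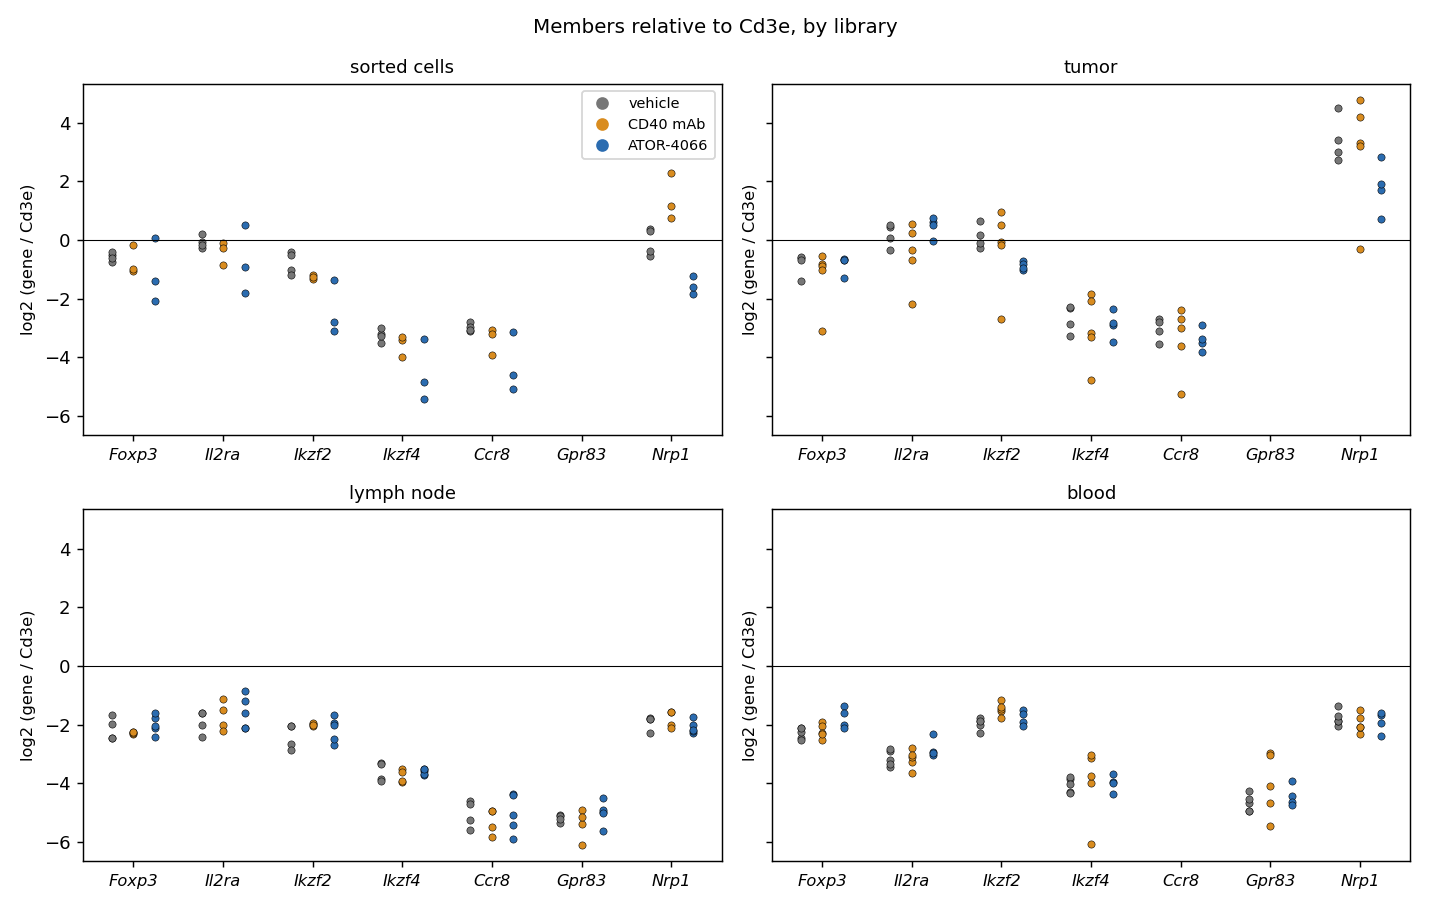
Log2 ratio of each of the 7 genes to Cd3e in each library, by material (panels) and treatment (colors); points are libraries, and a gene that failed the count filter in a material has no points. In sorted cells the ratio of Nrp1 to Cd3e separates the treatments, with CD40 mAb above and ATOR-4066 below vehicle. The median ratio of all genes to Cd3e moved the same way, by 0.92 and -1.75. In tumor 1 CD40 mAb library (replicate 5) lies below the rest for every gene shown.

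In whole tumor, Nrp1 was the only one of the 6 genes tested that edgeR called, and it fell under ATOR-4066, a call that rested on the full set of vehicle libraries. It was at 105, 101, 126 and 87.6 CPM in vehicle libraries 1, 2, 4 and 5. The CD40 mAb libraries 1 to 5 had 64.5, 95.6, 108, 72.9 and 106 CPM, and ATOR-4066 libraries 1, 2, 4 and 5 had 57.9, 50.9, 40.2 and 32.7 CPM. The 4 ATOR-4066 libraries lay below every other tumor library. The mean fell from 104.8 ± 16.0 to 45.4 ± 11.2 CPM (log2 difference -1.21 ± 0.21, edgeR, adjusted p = 0.0399), where 0.401% of all genes were called lower. Against CD40 mAb the difference was -0.98 ± 0.20 (0.139), and it was called by DESeq2 (0.00185) and by voom (0.0233). The shares of all genes that DESeq2 and voom called are not given here.

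The Nrp1 value under ATOR-4066 ran from -1.34 to -1.08 whichever library was left out. The call was lost without any 1 vehicle library, without ATOR-4066 1, 2 or 4 or without CD40 mAb 4, with adjusted p from 0.0526 to 0.164. With the left-out library it was -1.30 (0.0555). Fibroblast markers were lower in the same libraries: the 8 markers summed to 4706 to 9837 CPM under ATOR-4066, 10820 to 15240 in vehicle and 7553 to 13000 under CD40 mAb, with 0 of 8 called by edgeR. The 10 endothelium markers summed to 118 to 399 CPM under ATOR-4066 and 170 to 271 in vehicle, and the 10 macrophage markers to 2537 to 4239 and 2898 to 3692. The plasmacytoid dendritic cell markers summed to 711 to 2995 CPM under ATOR-4066 and 765 to 908 in vehicle. No marker of the fibroblast, endothelium and macrophage lists had a mean of 0 CPM in a tumor group. The part of any of these cells in the Nrp1 value was not tested.

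Foxp3 in whole tumor was at 10.2, 6.36, 3.43 and 4.06 CPM in vehicle, 1.96, 5.22, 5.85, 1.77 and 15.2 under CD40 mAb and 3.28, 9.55, 15.8 and 5.39 under ATOR-4066. The groups overlapped throughout. Against vehicle, Foxp3 differed by 0.50 ± 0.67 under ATOR-4066 (edgeR, adjusted p = 0.673) and by -0.01 ± 0.63 under CD40 mAb (0.996). Il2ra was at 16.5, 13.0, 7.91 and 8.65 CPM in vehicle, 5.03, 6, 9.40, 3.06 and 28.9 under CD40 mAb and 8.03, 23.4, 42.0 and 12.4 under ATOR-4066, with a difference of 0.90 ± 0.66 (0.415) for ATOR-4066.

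Ikzf2 in whole tumor was at 12.9, 10.8, 8.67 and 10.2 CPM in vehicle, 5.02, 9.30, 10.6, 5.07 and 20.2 under CD40 mAb and 4.99, 7.64, 14.1 and 4.50 under ATOR-4066, again with overlap (-0.44 ± 0.45, adjusted p = 0.57). Ikzf4 lay between 0.591 and 4.82 CPM and Ccr8 between 0.405 and 3.45 CPM over all tumor libraries, and Gpr83 at 0 to 7 counts, too low to test. CD40 mAb 5 was the highest of its group for Foxp3, Il2ra, Ikzf2, Ikzf4 and Ccr8, and its Cd3e was at 131 CPM against 2.6 to 11.8 in the other 4.

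Under CD40 mAb, 0 of 6 members were called in tumor against vehicle by edgeR or DESeq2, 0 had an unadjusted p under 0.05, and 0% of all genes were called. Between the antibodies, 0 of 6 were called by edgeR and 1, Nrp1, had an unadjusted p under 0.05. Of all 18454 genes there, 1879 had such a p and 0.0325% were called. For ATOR-4066 against vehicle the SE of Foxp3 was 0.67 in tumor and 0.37 in sorted cells, and that of Nrp1 was 0.21 in tumor and 0.26 in sorted cells.

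Relative to Cd3e in tumor, Ikzf2 was lower in every ATOR-4066 library than in any vehicle library, but was not called. There were 82.7, 114, 158 and 93.8 counts of Ikzf2 per 100 of Cd3e in vehicle, 145, 96.6, 89.8, 195 and 15.5 under CD40 mAb and 61.4, 49.7, 57.4 and 51.9 under ATOR-4066. The ATOR-4066 libraries lay below all vehicle libraries (-0.98 ± 1.11, limma, adjusted p = 1). Without CD40 mAb 5, whose own ratio was the lowest, the value was -0.98 ± 0.66 and the adjusted p 0.86. Foxp3 was at 65.7, 67.6, 62.3 and 37.5 per 100 of Cd3e in vehicle and 40.3, 62.2, 64.3 and 62.2 under ATOR-4066, which overlapped. Of 6 members, 0 were called relative to Cd3e by limma in any of the 3 comparisons, and 0 had an unadjusted p under 0.05. The shares of all genes called were 0.00542% for ATOR-4066 against vehicle, 0% for CD40 mAb against vehicle and 0.00542% between the antibodies.

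In lymph node, none of the 7 genes was called by edgeR. Foxp3 was at 20.5, 27.5, 21.3 and 27.0 CPM in vehicle libraries 1, 2, 4 and 5. In CD40 mAb libraries 2 to 5 it was at 16.5, 20.1, 22.5 and 20.9 CPM, and in ATOR-4066 libraries 1 to 5 at 27.0, 29.5, 31.3, 30.7 and 28.9 CPM. All 5 ATOR-4066 libraries lay above all 4 CD40 mAb libraries. The difference was 0.56 ± 0.11 (edgeR, adjusted p = 0.163), and DESeq2 called it (0.00151).

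Ikzf2 in lymph node was at 18.0, 21.1, 20.2 and 20.3 CPM in vehicle, 19.7, 24.4, 28.3 and 24.4 under CD40 mAb and 22.5, 26.0, 29.6, 23.5 and 29.4 under ATOR-4066. All 5 ATOR-4066 libraries lay above all vehicle libraries (0.40 ± 0.11, edgeR, adjusted p = 0.222; DESeq2 0.033). Il2ra was at 27.3 to 28.5 CPM in vehicle, with an SD of only 0.51, and at 34.1, 55.0, 41.1, 30.1 and 39.1 under ATOR-4066, all 5 above vehicle (0.52 ± 0.25, 0.325). Under CD40 mAb Il2ra was at 19.6, 46.1, 39.2 and 21.4 CPM, split around the vehicle level.

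Gpr83 passed the count filter of the treatment comparisons in lymph node and blood only, and on the scaling over all libraries its vehicle levels there were within each other's spread, at 1.40 ± 0.42 and 1.46 ± 0.40 CPM. On the lymph node scale it was at 2.94 ± 0.86 CPM in vehicle, 2.41 ± 0.97 under CD40 mAb and 3.80 ± 1.26 under ATOR-4066, with no call. Ikzf4 ran from 5.05 to 11.2 CPM, Ccr8 from 1.71 to 4.83 and Nrp1 from 20.3 to 37.1 over all lymph node libraries. Nrp1 differed by -0.01 ± 0.17 between ATOR-4066 and vehicle and by 0.01 ± 0.17 between the antibodies.

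By edgeR, 0 of 7 members were called in lymph node in each comparison, and 2 of 7 had an unadjusted p under 0.05 in each. Against vehicle these were Foxp3 and Ikzf2 under either antibody. Foxp3 was higher under ATOR-4066 (0.29 ± 0.11) and lower under CD40 mAb (-0.27 ± 0.11), while Ikzf2 was higher under both (0.40 ± 0.11 and 0.28 ± 0.12). Between the antibodies they were Foxp3 and Ikzf4. Of all 18671 genes tested, 2954 had such a p for ATOR-4066 against vehicle, 4409 for CD40 mAb against vehicle and 1740 between the antibodies. DESeq2 called 1 for ATOR-4066 against vehicle, 0 for CD40 mAb against vehicle and 1 between the antibodies. The shares of all genes that DESeq2 called are not given here, so its calls have no background to be read against. The shares of all genes called by edgeR were 0% for ATOR-4066 against vehicle, 0.0643% for CD40 mAb against vehicle and 0.0161% between the antibodies. Relative to Cd3e, 0 of 7 were called and 0 had an unadjusted p under 0.05 in each comparison, with 0.0536%, 0.0696% and 0.0268% of all genes called.

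Against Foxp3 rather than Cd3e, Ikzf2 differed in lymph node under CD40 mAb. There were 83.7 ± 9.3 counts of Ikzf2 per 100 of Foxp3 in vehicle, 120.8 ± 3.9 under CD40 mAb and 89.0 ± 9.7 under ATOR-4066. The 4 CD40 mAb libraries lay above all vehicle libraries (0.54 ± 0.13, limma, adjusted p = 0.0176; 13% of all genes called higher). All 5 ATOR-4066 libraries lay below all CD40 mAb libraries (-0.45 ± 0.12, 0.00514; 58.4% called lower). Nrp1 was lower against Foxp3 between the antibodies too (-0.56 ± 0.20, 0.0233). Foxp3 stands in the denominator of every gene in this comparison.

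In blood the 7 genes were sparse. Foxp3 was at 1.63, 1.5, 1.13, 1.35 and 1.22 CPM in vehicle libraries 1 to 5, from 66 to 153 counts. It was at 1.25, 1.27, 1.41, 1.16 and 1.31 CPM under CD40 mAb, from only 14 to 41 counts. In ATOR-4066 libraries 1, 3, 4 and 5 it was at 1.62, 2.15, 2.12 and 1.54 CPM, from 47 to 83 counts. All 4 ATOR-4066 libraries lay above all CD40 mAb libraries (0.52 ± 0.17, edgeR, adjusted p = 0.0519). The difference passed without blood ATOR-4066 5 (0.63, 0.0409) and with haemoglobin genes left out of the library size (0.54, 0.044). Against vehicle, Foxp3 stood at 0.43 ± 0.15 under ATOR-4066 (0.203).

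Ikzf2 in blood was at 1.93, 1.71, 1.60, 1.89 and 1.43 CPM in vehicle, 2.52, 1.75, 2.63, 1.65 and 2.51 under CD40 mAb and 1.74, 1.33, 2.27 and 2.18 under ATOR-4066. Relative to Cd3e it was higher under CD40 mAb than in vehicle. There were 26.6, 20.3, 24.0, 28.4 and 26.4 counts per 100 of Cd3e in vehicle and 34.0, 35.9, 44.6, 28.6 and 37.4 under CD40 mAb, all 5 above vehicle (0.51 ± 0.18, limma, adjusted p = 0.0443; 20.2% of all genes called higher). The call was lost without any 1 of vehicle 1 to 4, CD40 mAb 2, 3 or 5 or ATOR-4066 1, 4 or 5 (adjusted p up to 0.116), and with Cd4 as the reference (0.119). Against Foxp3, Ikzf2 was lower under ATOR-4066 than under CD40 mAb, at 104.5 ± 32.8 and 172.3 ± 29.9 per 100 (-0.74 ± 0.22, 0.015; 33.4% called lower).

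Ccr8 had 0 counts in all 5 CD40 mAb blood libraries and 0 to 6 in the others, and was too low to test between treatments. Il2ra ran from 0.491 to 1.10 CPM, Ikzf4 from 0.0546 to 0.662, Gpr83 from 0.0909 to 0.662 and Nrp1 from 1.26 to 2.53 over all blood libraries. Their counts per library were 8 to 71 for Il2ra, 1 to 43 for Ikzf4, 2 to 25 for Gpr83 and 16 to 209 for Nrp1. None of them was called.

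By edgeR, 0 of the 6 genes tested in blood were called in each comparison, and DESeq2 called 0 as well. An unadjusted p under 0.05 was reached by 1 gene in each: Foxp3 for ATOR-4066 against vehicle, Ikzf2 for CD40 mAb against vehicle and Foxp3 between the antibodies. Of all 12184 genes tested, 1831, 5449 and 3209 reached such a p, and the shares called were 0.435%, 34.6% and 13.1%. Relative to Cd3e, 0 of 6 were called for ATOR-4066 against vehicle. Foxp3 had an unadjusted p under 0.05 there, as did 1028 of all 12183 genes. Between the antibodies 0 of 6 were called and none had such a p. The shares of all genes called there were 0% and 7.4%.

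The scaling mattered in blood. With library sizes used without TMM, the median of all genes shifted by -1.07 for ATOR-4066 against vehicle, -1.78 for CD40 mAb against vehicle and 0.71 between the antibodies. The genes called higher and lower went from 50 and 3 to 11 and 9161, from 2710 and 1509 to 318 and 10654, and from 281 and 1312 to 2324 and 383. Foxp3 (-0.68) and Il2ra (-0.86) under ATOR-4066 and Ikzf2 (-1.35) and Gpr83 (-1.14) under CD40 mAb against vehicle, and Ikzf2 between the antibodies (0.45), then had the opposite sign, which follows from the shift of all genes and says nothing of these genes in particular.

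**Figure D4:**
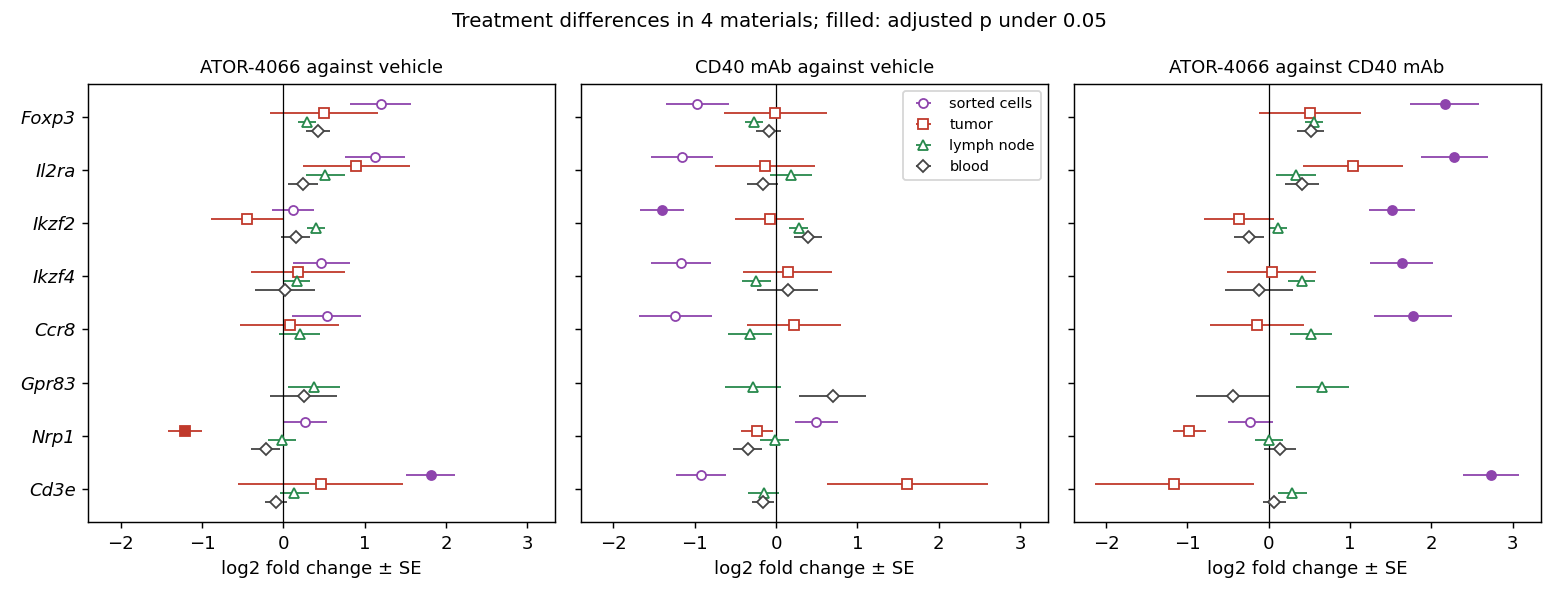
Log2 fold change with its standard error for the 7 genes and Cd3e in 4 materials, in 3 comparisons (panels); filled symbols passed an adjusted p of 0.05, and a gene that failed the count filter in a material has no symbol. The filled symbols are Nrp1 in tumor and Cd3e in sorted cells for ATOR-4066 against vehicle, Ikzf2 in sorted cells for CD40 mAb against vehicle, and Foxp3, Il2ra, Ikzf2, Ikzf4, Ccr8 and Cd3e in sorted cells between the antibodies.

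Whether the treatment effects differed between materials was tested in the fit of all groups. Nrp1 was the 1 member for which they did. The effect of ATOR-4066 against vehicle on Nrp1 was higher in sorted cells than in whole tumor by 1.46 ± 0.35 (log2, voomLmFit, adjusted p = 0.00463; 4.94% of all genes called higher). It was lower in tumor than in lymph node, by a difference of -1.22 ± 0.27 (0.00565; 4.08% called lower). With the left-out libraries the second was -1.08 (0.132) and the first was 1.59 (0.0055). In the first, sorted and tumor libraries share no number, so material and a separate set of animals cannot be told apart. Ikzf2 differed by -1.004 ± 0.36 between tumor and lymph node (0.0699), and passed without lymph node ATOR-4066 1 (-1.06, 0.0495) or tumor ATOR-4066 4 (-1.31, 0.0277).

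For Foxp3, the same differences under ATOR-4066 were 0.80 ± 0.55 between sorted cells and tumor (adjusted p = 0.426), 0.06 ± 0.48 between tumor and lymph node (0.966) and -0.04 ± 0.48 between lymph node and blood (0.977). No member was called for ATOR-4066 between lymph node and blood (0.883% of all genes) by voomLmFit, nor for CD40 mAb between sorted cells and tumor (0.402%), tumor and lymph node (5.5%) or lymph node and blood (22.9%). At an unadjusted p under 0.05 there were 2 in those 4 tests, Ikzf2 (-1.12 ± 0.41) and Nrp1 (0.78 ± 0.34), both for CD40 mAb between sorted cells and tumor. No second tool was run for these differences.

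Across libraries, the genes whose levels were most like Foxp3 were taken as those with the highest mean of the Pearson correlations within tumor (13 libraries), sorted cells (10) and lymph node (13), over 12717 genes. They were Ccr4 (mean r 0.87), a chemokine receptor, Ikzf4 (0.86), Satb1 (0.84), a chromatin organizer of T cells, Ccr8 (0.83) and Tnfrsf18 (0.82), which encodes GITR. Il2ra ranked 7 (0.82), Cd4 ranked 32, Cd3e 37 and Ikzf2 64. Nrp1 ranked 9093, with r of -0.06 in tumor, -0.52 in sorted cells and 0.01 in lymph node. Without the 2 libraries farthest from the median the first 2 of these turned sign, to 0.17 in tumor and 0.22 in sorted cells. Within sorted cells, r with Foxp3 was 0.98 for Il2ra and 0.86 for Ikzf2. In lymph node the values were lower, at 0.76 for Ikzf4, 0.70 for Ccr8 and 0.53 for Il2ra. Without the 2 farthest libraries those of Ikzf4 and Ccr8 in lymph node were 0.46 and 0.40. These correlations are descriptions: the libraries of a material share treatments and differ in T cell content.

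Genes that act with regulatory T cells were counted in 5 lists. Of 20 effector genes in sorted cells, which include the products through which the cells suppress, 3 rose and 1 fell under ATOR-4066 against vehicle, where 1126 of all 16667 genes tested rose and 851 fell. Icos rose by 1.79 ± 0.37 and Ctla4, the inhibitory receptor, by 1.84 ± 0.51, and Areg, a growth factor for tissue repair, by 3.61 ± 0.61, while Fgl2, a secreted suppressor also made by macrophages, fell (-1.03 ± 0.27). The median of the list was 0.56 against -0.02 for all genes. Cd3e rose by 1.81 ± 0.30 in the same comparison. The values of this list and of those below are in CPM and are not set against T cell content. Of 24 partners and regulators of Foxp3, 8 rose and 0 fell (median 0.72), among them Batf by 0.84 ± 0.14, Prdm1 by 1.09 ± 0.18 and Irf4 by 1.61 ± 0.29, factors of activated T cells as well as of effector regulatory cells.

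Of 13 genes of the IL-2 axis, 3 rose and 1 fell under ATOR-4066 (median 0.34), in the same comparison with 1126 higher and 851 lower of 16667 genes. Il7r, the IL-7 receptor, which regulatory T cells carry little of, rose by 2.28 ± 0.32, Il2rg, the common gamma chain, by 0.54 ± 0.13 and Stat5b by 0.48 ± 0.13, and Bcl2, which blocks apoptosis, fell (-0.96 ± 0.26). Of 14 tested ligand and homing genes 3 rose and 0 fell (median 0.64): S1pr1 by 2.81 ± 0.45, Cxcr3 by 1.93 ± 0.40 and Ccr7 by 1.47 ± 0.34. Of 10 tested genes of conventional helper T cells 5 rose and 0 fell (median 2.53), led by Cd40lg, the CD40 ligand, at 4.31 ± 0.56, Cxcr6 at 2.67 ± 0.37 and Il21 at 5.01 ± 1.06.

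Under CD40 mAb against vehicle in sorted cells, 0 genes of the 5 lists were called by edgeR, where 89 of 16667 genes rose and 93 fell. The list medians were -0.65 for effector genes, -0.15 for partners, -0.13 for the IL-2 axis, -0.09 for ligands and homing and -0.40 for helper genes. Between the antibodies, 879 of 16667 genes were called higher under ATOR-4066 and 493 lower. Of 20 effector genes 7 were higher and 1 lower, of 24 partners 9 and 0, of 13 genes of the IL-2 axis 4 and 0, of 14 ligand and homing genes 3 and 0 and of 10 helper genes 6 and 0. Among the called genes were Icos at 2.77 ± 0.42, Tnfrsf4, which encodes OX40, at 2.22 ± 0.46, Ctla4 at 2.68 ± 0.58 and Ccr4 at 2.21 ± 0.44. Cd3e was higher there by 2.74 ± 0.34.

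In tumor and lymph node, 0 genes of the 5 lists were called in any comparison by edgeR. In blood under CD40 mAb against vehicle, 2710 of 12184 genes rose and 1509 fell. Of 17 effector genes tested 4 rose and 0 fell, among them Klrg1 by 1.27 ± 0.18 and Entpd1, the CD39 ectonucleotidase, by 0.92 ± 0.20. Of 24 Foxp3 partners 1 rose, Foxo3 by 1.44 ± 0.22, and 8 fell, among them Foxo1 (-0.68 ± 0.14) and Nfatc2 (-0.55 ± 0.11). On library sizes without TMM these blood directions are subject to the shift of -1.78 given above. B cell markers were lower in the same libraries, with 7 of 8 called lower and sums of 112 to 295 CPM under CD40 mAb and 302 to 371 in vehicle, and all 6 erythroid markers were called higher. Their part in these values was not tested.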

How the data were processed

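Estimated counts per gene were deposited by the authors as 1 table of the whole series, made from poly(A) RNA with a stranded kit; the submitters' processing notes name STAR (version 5.1) and GRCm38, and the sources used here do not state how the quantification was set. The counts were rounded to whole numbers, and 11% of all values were not whole. Libraries left out are named in the report. Each material was fitted on its own with its 3 treatments in edgeR 4.0.16 (quasi-likelihood, TMM, count minimum 10, total minimum 15), in R 4.3.3, with Benjamini-Hochberg adjustment over all genes tested. Ratios to Cd3e or Foxp3 were tested with limma 3.58.1 on log2 CPM (prior count 2), and materials and differences of treatment effects with voomLmFit, with the title number as an animal block (50 libraries, 21410 genes), although the labels do not state that equal numbers are one animal. The scripts were tested on simulated data.

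The 7 genes and all lists were chosen with earlier results of these data known. Named genes are the 7 members and Cd3e, the 3 called genes of each list with the smallest p (Ctla4 for ATOR-4066 against vehicle and Bcl2 were added after their values were seen), and the 5 genes most like Foxp3 with the ranks of the members and T cell genes. Alternatives were DESeq2 1.42.0, voom with sample weights, other filters, scalings and reference genes, the replicate block, and leaving out each library. Deviations of libraries from their group means were correlated between treatments. In no comparison was every same-numbered pair the best correlated for its libraries, so the block was not taken as a pairing. The references Cd4 and Foxp3 were added after the data were seen.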

Additional observations from a re-analysis of the deposited data

Results flagged for a closer look

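In whole tumor, CD40 mAb 5 stood far from the other 4 libraries of its group for Il2ra (28.9 CPM, the others 3.06 to 9.40) and for Ikzf4 (4.82 CPM, the others 0.591 to 1.16); chance flags about 1 in 20 groups, and 63 groups were tested. Without it the CD40 mAb values against vehicle were -0.97 for Il2ra and -0.73 for Ikzf4. The effect of ATOR-4066 on Nrp1 differed between sorted cells and tumor (1.46) and between tumor and lymph node (-1.22), by the test of the difference itself.

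The 2 left-out libraries went against their labels, and whether they were exchanged was not tested, so the material of each is uncertain. The library labelled lymph node vehicle 3 had Nrp1 at 66.4 CPM (23.4 to 31.9 in the other vehicle lymph nodes), while the other 6 members lay below all of those, Foxp3 at 5.96 against 20.5 to 27.1 CPM. The library labelled tumor ATOR-4066 3 had Foxp3 at 21.3, Il2ra at 44.9, Ikzf2 at 19.9, Ikzf4 at 5.17, Ccr8 at 2.17 and Gpr83 at 1.81 CPM, each above every vehicle tumor library.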

How the results depend on the processing

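Counts of called members moved as follows, and the cause was not tested. The shares of all genes called under these other settings are not given beside them. In sorted cells the count for ATOR-4066 against vehicle went from 0 to 2 with DESeq2 or with only the treatments compared (0 to 2 over left-out libraries). For CD40 mAb against vehicle it went from 1 to 3 with DESeq2 and 0 with the replicate block (0 to 1). Between the antibodies it went from 5 to 3 with no low-count filter and to 0 with only the treatments compared or the replicate block (0 to 4). Relative to Cd3e, CD40 mAb against vehicle went from 1 to 0 relative to Cd3d, Cd3e and Cd3g, the T cell markers or Cd4 (0 to 1), the antibodies from 2 to 1 relative to the T cell markers (1 to 6), and ATOR-4066 against vehicle ranged from 2 to 6. In tumor, ATOR-4066 against vehicle went from 1 to 0 with the left-out library or the replicate block (0 to 1), and the antibodies from 0 to 1 with DESeq2 or voom. In lymph node, DESeq2 gave 1 for ATOR-4066 against vehicle and 1 between the antibodies. In blood, library sizes without TMM gave 4, 6 and 2 calls for ATOR-4066 and CD40 mAb against vehicle and between the antibodies, against 0, and leaving out haemoglobin genes gave 1 between the antibodies (0 to 1). The blood ratio call of Ikzf2 went from 1 to 0 with the replicate block or relative to Cd3d, Cd3e and Cd3g, the T cell markers or Cd4 (0 to 1). The difference of ATOR-4066 effects between tumor and lymph node went from 1 to 0 with the left-out libraries (1 to 2). Relative to Cd3e between materials, blood against lymph node went from 2 to 1 relative to Cd3d, Cd3e and Cd3g (1 to 2) and tumor against lymph node, Gpr83 at its few counts included, from 6 to 3 with the left-out libraries (5 to 6).

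Without TMM the median of all genes in blood shifted by -1.07, -1.78 and 0.71, and with that shift the sign reversed for Foxp3 (-0.68) and Il2ra (-0.86) under ATOR-4066 and Ikzf2 (-1.35) and Gpr83 (-1.14) under CD40 mAb against vehicle, and for Ikzf2 between the antibodies (0.45). With the replicate block, Nrp1 in tumor was -1.22 (adjusted p = 0.125) and Ikzf2 in sorted cells under CD40 mAb -1.33 (0.189). Leaving out libraries in the voomLmFit fits across materials was done without the animal block. In the ratio fits across materials the block was kept, at the correlation of the full fit. Low counts limit Ccr8 in blood and Gpr83 in tumor and sorted cells. They also limit Ikzf4 (1 to 43 counts), Gpr83 (2 to 25) and Il2ra (8 to 71) in blood.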
